A study of Mus musculus with 3 samples.

Results

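Macrophage_3 was a cluster of 1418 cells among 20266 immune cells of the mouse kidney, or 6.997% of them. Its members were taken as the rows that carry the cluster name Macrophage_3 in the deposited table, so no expression value was used to choose them here. It was 1 of 23 clusters and 1 of 4 grouped here as resident macrophages (5367 cells), beside Macrophage_1 (1996 cells), Macrophage_2 (1680 cells) and Isg+_Macrophage (273 cells). The cluster Malat+_Macrophage (1043 cells) was left out of this group and of the shares below. The name was given together with the enrichment of the cluster in the medulla and with 4 marker genes, Fxyd2, Slc6a12, Stab1 and Gas6.

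The study asked whether the transcriptome of a kidney immune cell tells where in the organ the cell lay. The cortex was separated by dissection from the outer medulla (OM), which was in turn cut from the inner medulla (IM). Cells carrying CD45, the common surface protein of leukocytes, were then sorted and sequenced in droplets. All mice were male C57BL/6J animals of 10 weeks, wild type and without treatment, in every group used here, and the cells came from facilities in Aachen, Bonn and Hamburg. The cells of 1 compartment at 1 facility form a library here, which gives 9 libraries with the facilities as 3 replicates. Each Aachen library joins cells with 2 barcode suffixes. How many mice were pooled into each library is not given in the sources used here, and facility, kit and depth cannot be told apart.

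Macrophages that settle in an organ take on features of their surroundings. Those of the renal medulla live among tubules and vessels in a fluid that is salty, rich in urea and poor in oxygen, and cells there survive by taking up or making small organic osmolytes. Fxyd2 encodes the gamma subunit of the sodium pump (Na,K-ATPase), best known from tubule epithelium. Slc6a12 encodes the betaine transporter BGT1, which brings an osmolyte into cells and is a classical target of the osmotic stress factor NFAT5. Stab1 encodes the scavenger receptor stabilin-1, and Gas6 a bridging ligand that links dying cells to the receptors Tyro3, Axl and Mertk on phagocytes.

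All 4 marker genes are protein coding. In GRCm38, the build of the deposited counts, Fxyd2 lies at chr9:45399669-45410278 on the plus strand, Slc6a12 at chr6:121343076-121365775 on the plus strand, Stab1 at chr14:31139013-31168641 on the minus strand and Gas6 at chr8:13465374-13494490 on the minus strand. The promoter of Slc6a12 is shown because this gene was listed at 0 in the cortical Macrophage_3 cells and is a known target of NFAT5, whose binding element holds the letters TGGAAA. These letters, searched on both strands in the 250 bases before each RefSeq start (GRCm38.p6), were found in 1 of the 7 windows of Slc6a12, Stab1 and Gas6. The window lies at chr6:121342324-121342573, plus strand, and the capitals mark the match, which begins 75 bases before the most upstream RefSeq start. The other 4 Slc6a12 windows, among them the one that ends at the gene start given above, hold no match.
Slc6a12: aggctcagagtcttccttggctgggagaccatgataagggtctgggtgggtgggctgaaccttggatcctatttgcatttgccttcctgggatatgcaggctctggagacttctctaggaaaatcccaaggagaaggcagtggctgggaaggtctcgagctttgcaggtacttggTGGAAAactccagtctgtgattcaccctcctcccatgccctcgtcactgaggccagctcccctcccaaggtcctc
Of 32851 such windows in the genome, 18.6% hold the same 6 letters, so a match alone describes the sequence and says nothing of binding.

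The first comparison asked where the cluster lay. In the cortex, Macrophage_3 made up 0 of 496 resident macrophages at Aachen, 7.05% of 539 at Bonn and 0 of 232 at Hamburg, and the empty libraries allow a share of up to 0.741% and 1.58% (exact 95% binomial limits). In OM the shares were 44.7, 42.9 and 23.0% at Aachen, Bonn and Hamburg, and in IM they were 1.17, 43.1 and 15.4%. Thus 5 of the 6 medullary libraries lay above every cortical library, and the Aachen IM library, with 7 cells of 596, lay below the cortex of Bonn.

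The mean share was 2.35% ± 4.07 in cortex, 36.9% ± 12.1 in OM and 19.9% ± 21.3 in IM (SD, n = 3 libraries each). The medulla exceeded the cortex by 26.0 percentage points, with differences of 22.9, 36.0 and 19.2 points at Aachen, Bonn and Hamburg (exact permutation test within facilities, two-sided, p = 0.037, the smallest value that 27 arrangements allow). This enrichment was known when the cluster was named. Taken as a share of all sorted immune cells, the difference was 9.14 points (exact permutation p = 0.185), and without called doublets it was 26.0 points (exact permutation p = 0.074). OM exceeded IM by 16.9 points on average, but by 43.5, -0.289 and 7.54 points at the 3 facilities, and the exact permutation test gave p = 0.50, where the smallest value possible is 0.25.

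**Figure D1:**
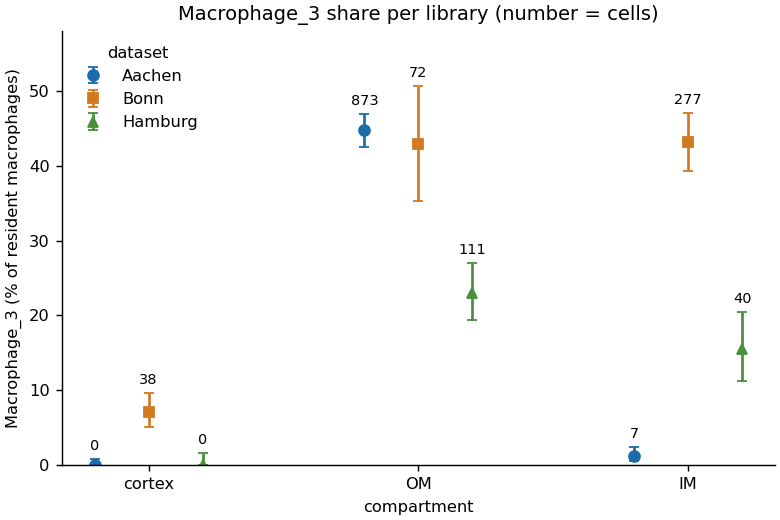
Share of Macrophage_3 among resident macrophages (%, y axis) in each of the 9 libraries by compartment (x axis), with exact 95% binomial intervals that cover counting error only and the number of Macrophage_3 cells above each point. The Aachen and Hamburg cortex points lie at 0 and the 3 OM points between 23.0 and 44.7%, while the IM points spread from 1.17 to 43.1%.

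The cells were unevenly spread over libraries and depths. Aachen OM alone held 873 of the 1418 cells, or 61.6%, at a median of 798 UMIs (unique molecular identifiers, each marking 1 captured RNA molecule) per cell. The other libraries held 277 (Bonn IM), 111 (Hamburg OM), 72 (Bonn OM), 40 (Hamburg IM), 38 (Bonn cortex) and 7 cells (Aachen IM), at medians of 990 to 4676 UMIs. Doublet calling marked 8 of the 1418 cells, 34 of them carried a cell barcode that occurs in 2 or more libraries, and 278 held at least 2 UMIs of T or B cell marker genes. Levels are given below as CPM, the UMIs of a gene per 1000000 UMIs of the same cells, in the 6 libraries with at least 10 Macrophage_3 cells.

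The cells carried the profile of resident macrophages. Summed over 14 macrophage genes such as C1qa, Csf1r and Adgre1, Macrophage_3 held 372 to 500 UMIs per 10000 in its 5 medullary libraries, against 3.06 to 34.3 in T and B cells of the medulla. The lists of T cell, B cell, monocyte and neutrophil genes stood far lower in the same libraries. They held 0.675 to 1.18 per 10000 for T cell genes, 1.29 to 5.76 for B cell genes, 0.563 to 2.41 for monocyte genes and 0.204 to 0.491 for neutrophil genes. Levels of the dendritic cell and NK cell lists are not given here. T and B cells themselves held up to 30.2 per 10000 of the T cell and 13.6 to 86.0 per 10000 of the B cell genes. All values of Macrophage_3 for both lists lay below those of the lymphocytes. The T cell list includes Cd4, which was higher in Macrophage_3 than in Macrophage_1 and Macrophage_2 (median log2 ratios within libraries 0.76 and 0.73). Its part in the T cell level and in the count of cells with T or B cell UMIs was not tested.

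Fxyd2 stood out among the 4 markers by its level. Macrophage_3 held 677 CPM of it in Aachen OM, 493 in Bonn OM, 791 in Bonn IM, 529 in Hamburg OM and 347 in Hamburg IM, and 70.8 in Bonn cortex. The medullary mean was 567 ± 171 CPM (SD, n = 5), and the single cortical library lay below all of them. Macrophage_1 ranged from 91.1 to 598 CPM in its 6 medullary libraries and overlapped with Macrophage_3, whereas Macrophage_2 ranged from 14.5 to 96.6 and did not.

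At least 1 Fxyd2 UMI was seen in 35.4 to 68.2% of the Macrophage_3 cells of a medullary library, and in 13.9 to 29.6% once each cell was thinned to 500 UMIs. In T and B cells of the medulla the share was 0.680 to 5.02% unthinned and 0 to 2.34% thinned, at median depths of 645 to 2940 UMIs against 798 to 4676 in Macrophage_3. Medullary Macrophage_1 overlapped with Macrophage_3, at 7.43 to 68.8% unthinned and 4.08 to 23.3% thinned, with median depths of 803 to 5887 UMIs. In Bonn cortex 3 of 38 Macrophage_3 cells, or 7.89% (exact 95% interval 1.66 to 21.4%), held the gene.

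Since Fxyd2 is a tubule gene, it was set beside 32 other genes of tubule and collecting duct cells. Macrophage_3 held 2028 Fxyd2 UMIs and 481 UMIs of the 32 other genes together, a ratio of 4.22. The ratio was 10.7 in Aachen OM, 8.74 in Bonn OM, 13.2 in Hamburg OM, 2.87 in Bonn IM and 2.72 in Hamburg IM, and 0.600 in Bonn cortex. T and B cells gave 165 Fxyd2 UMIs to 2115 of the other tubule genes, a ratio of 0.0780, and the 69 cells of the cluster named Undefined, which carried 250 tubule UMIs per 10000, gave 0.171.

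Macrophage_1 had a ratio of 3.20 and Macrophage_2 one of 0.481. Both varied between libraries. Macrophage_1 lay above Macrophage_3 in Hamburg OM (16.75), Bonn OM (9) and Hamburg IM (3.83), and below it in Aachen OM (4) and Bonn IM (2.77). Macrophage_2 reached 5.75 in Aachen OM and 11.0 in Hamburg OM, on only 4 and 3 UMIs of the 32 genes, but stood at 0.185 in Bonn IM. The T and B cells of Aachen OM, Hamburg OM and Bonn IM gave 1.15, 0.114 and 0.0465. In these 3 libraries the ratio was higher in Macrophage_3 than in the lymphocytes, and the part of tubule RNA in the Fxyd2 level was not tested. The level of the 32 genes ranged from 0.402 to 2.75 per 10000 over the 5 medullary Macrophage_3 libraries and from 0.389 to 4.08 in T and B cells over all libraries.

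**Figure D2:**
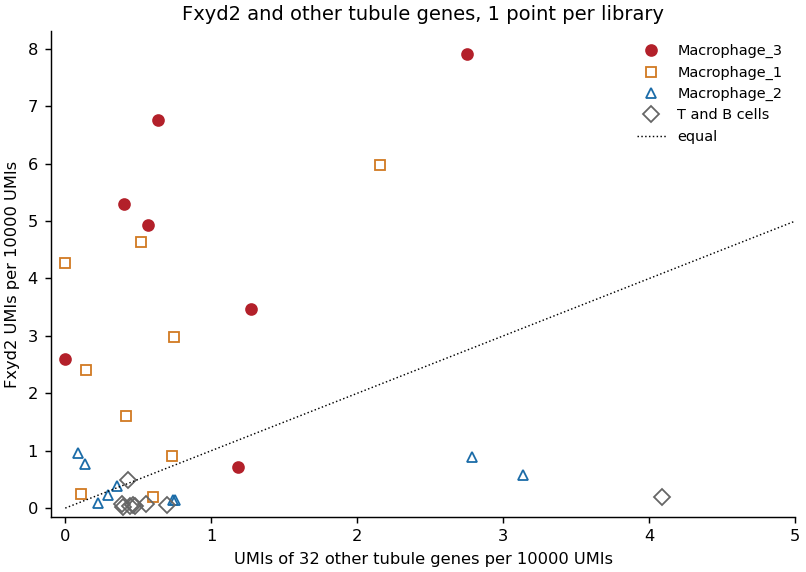
Fxyd2 UMIs per 10000 UMIs (y axis) against the UMIs of 32 other tubule genes per 10000 UMIs (x axis), 1 point for each library of Macrophage_3, Macrophage_1, Macrophage_2 and T and B cells; the dotted line marks equal levels. The 5 larger medullary libraries of Macrophage_3 lie between 3.47 and 7.91 on the y axis, above the line, and its cortical library lies at 0.708, below it.

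Slc6a12 was a rare transcript throughout. Macrophage_3 held 49.1 CPM in Aachen OM, 51.5 in Bonn OM, 47.6 in Bonn IM, 21.6 in Hamburg OM and 14.2 in Hamburg IM, while none was seen in Bonn cortex. Macrophage_1 reached 0 to 56.2 CPM in the medulla and Macrophage_2 0 to 19.9, so the groups overlapped in both cases. Between 4.01 and 22.2% of medullary Macrophage_3 cells held a UMI of it, against 0 to 26.0% of Macrophage_1 and 0 to 0.521% of T and B cells. After thinning the shares were 0 to 3.61% in Macrophage_3, at 0 in Bonn OM and Hamburg OM. They were 0 to 3.33% in Macrophage_1 and 0 to 0.275% in T and B cells. In the cortical library 0 of 38 cells held a UMI, which allows up to 9.25% of cells with a UMI (exact 95% limit) and does not bound how many express the gene.

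Stab1 was also present in the cortical cells of the cluster. Its levels in Macrophage_3 were 237 CPM in Aachen OM, 439 in Bonn OM, 378 in Bonn IM, 254 in Hamburg OM, 255 in Hamburg IM and 378 in Bonn cortex. Macrophage_1 ranged from 89.1 to 255 CPM in the medulla and overlapped with these values, and Macrophage_2 ranged from 61.3 to 126 and did not. T and B cells reached at most 30.5 CPM.

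Gas6 was the only 1 of the 4 whose medullary levels in Macrophage_3 overlapped with neither cluster. It stood at 97.0 CPM in Aachen OM, 150 in Bonn OM, 138 in Bonn IM, 142 in Hamburg OM and 120 in Hamburg IM, with 55.1 in Bonn cortex. The highest medullary library of Macrophage_1 held 83.7 CPM and that of Macrophage_2 held 55.0. Over the whole series, Macrophage_3 accounted for 41.2% of all Gas6 UMIs, 34.3% of Stab1, 33.7% of Slc6a12 and 28.1% of Fxyd2, while Macrophage_1 held 29.2, 30.2, 38.5 and 25.5% in the same order. The Undefined cells held 33.5% of the Fxyd2 UMIs, more than either cluster. Over all libraries, Malat+_Macrophage stood at 221 CPM of Stab1 and 58.1 of Gas6. Macrophage_3 stood at 330 and 125, and Macrophage_1 at 166 and 50.8.

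**Figure D3:**
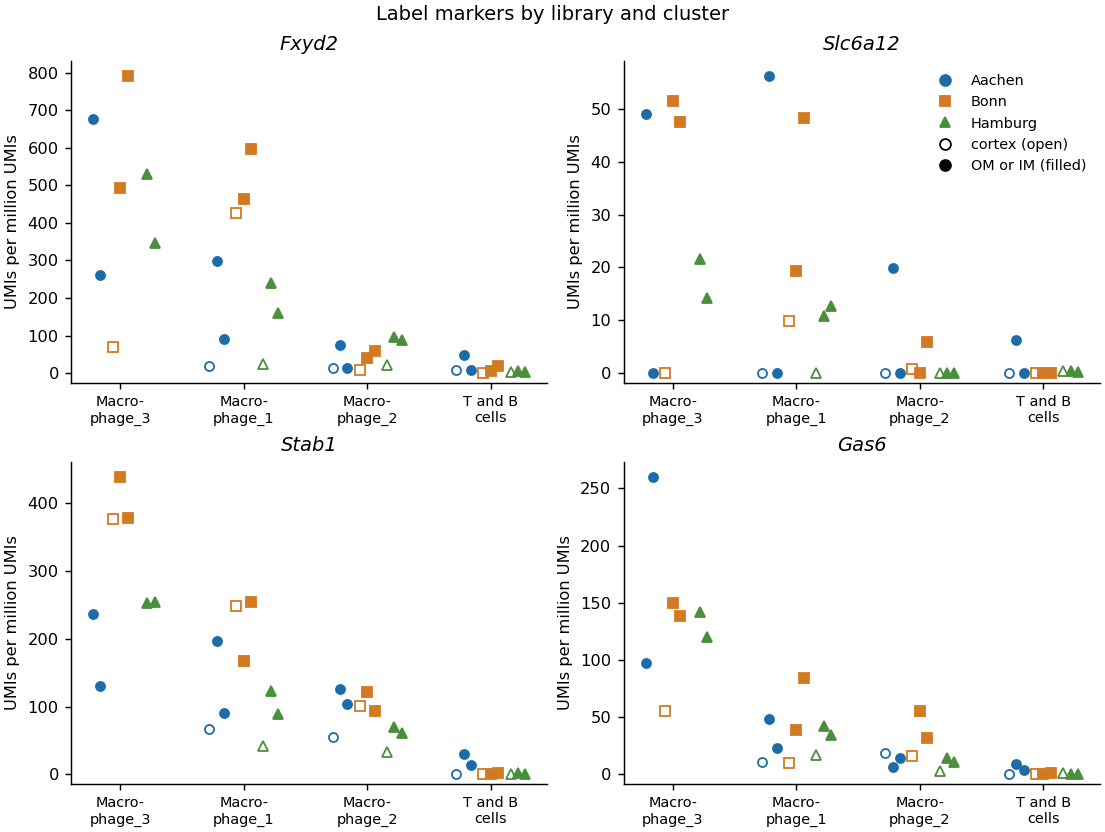
CPM (y axes) of Fxyd2, Slc6a12, Stab1 and Gas6 in Macrophage_3, Macrophage_1, Macrophage_2 and T and B cells (x axes); each point is 1 library, coloured by facility, open for cortex and filled for OM or IM, and the 7 cells of Aachen IM are included. Gas6 separates the larger medullary Macrophage_3 libraries (97.0 to 150) from those of the other clusters (at most 83.7), whereas Fxyd2 and Slc6a12 overlap between Macrophage_3 and Macrophage_1.

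The next comparison described how Macrophage_3 differed from its neighbours in the same library. Log2 ratios were formed within each of the 5 medullary libraries with at least 10 cells of each cluster, over 4626 genes. A gene counted as higher or lower where the median ratio was at least 1 in size and all 5 ratios had the same sign. The clusters were made from these genes, so the ratios are a description with no test.

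Only Gas6, Pf4 and Fxyd2 were higher than in both clusters (0.0649% of the genes). The median log2 ratio against Macrophage_1 and Macrophage_2 was 1.63 and 3.05 for Gas6, 1.01 and 1.74 for Pf4, which encodes the chemokine CXCL4, and 1.07 and 3.17 for Fxyd2. For Fxyd2 the 5 ratios against Macrophage_1 were 1.09 in Aachen OM, 0.06 in Bonn OM, 0.33 in Bonn IM, 1.07 in Hamburg OM and 1.07 in Hamburg IM, and the levels at Bonn were 493 and 464 CPM in OM and 791 and 598 in IM for Macrophage_3 and Macrophage_1. Without Hamburg, 2 genes were higher than in both clusters and 0 of them were among these 3.

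Lower than in both clusters were 10 genes (0.216%). They included Ccr2, the receptor that guides monocytes out of the blood, with a median log2 ratio of -2.12 against Macrophage_1 and -3.49 against Macrophage_2. Itgax, which encodes CD11c, gave -1.60 and -3.20, and Mmp12, the macrophage elastase, gave -2.01 and -1.83.

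The other 7 were Rgs1, a regulator of G protein signalling, the stress gene Gadd45g, the chemokine gene Cxcl9, the survival gene Bcl2a1d, the peptidase gene Dpp4 (CD26), the kinase gene Fgr and the receptor gene Gpr31b. Their median log2 ratios ranged from -1.14 (Fgr, Gpr31b) to -2.12 (Gadd45g) against Macrophage_1 and from -1.17 (Gadd45g) to -2.41 (Dpp4) against Macrophage_2. Levels were low for several of them: Dpp4 stood at 0 to 7.36 CPM and Gpr31b at 0 to 14.7 in the medullary libraries of Macrophage_3.

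In absolute terms, Ccr2 stood at 10.8 CPM in Aachen OM, 51.5 in Bonn OM, 48.3 in Bonn IM, 6.19 in Hamburg OM and 0 in Hamburg IM, against 133 to 581 in the medullary libraries of Macrophage_2. Mmp12 stood at 32.3, 174, 172, 278 and 56.6 CPM in the same order, against 424 to 913 in Macrophage_2 and 189 to 1148 in Macrophage_1. For Mmp12 against Macrophage_2 the ranges did not overlap, nor did they for Ccr2.

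**Figure D4:**
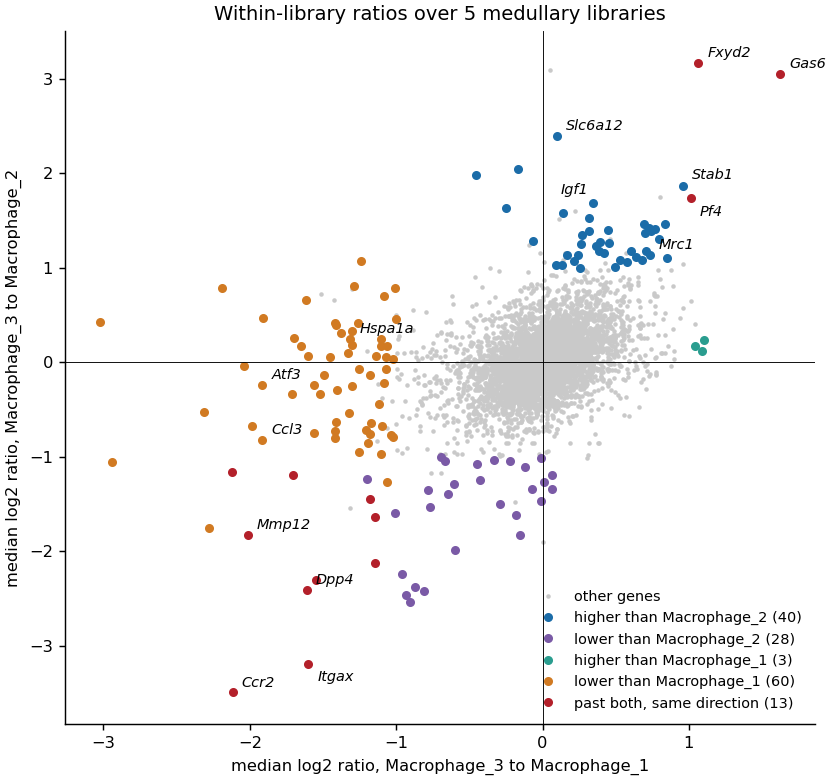
Median log2 ratio of Macrophage_3 to Macrophage_1 (x axis) and to Macrophage_2 (y axis) over 5 medullary libraries, 1 point for each of 4626 genes, coloured by whether the gene passed the rule against 1 or both clusters. The 3 genes higher than in both lie at the upper right and the 10 genes lower than in both at the lower left, and most of the 70 genes lower than in Macrophage_1 form a band on the left.

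The 2 neighbours differed from Macrophage_3 in different ways. Against Macrophage_1, 6 genes were higher (0.13%) and 70 lower (1.51%), and against Macrophage_2, 43 were higher (0.93%) and 38 lower (0.821%). Examples in the next paragraphs that belong to neither of the gene sets above were taken from fixed lists or were chosen after their values were seen. Counts over a list cover the members that passed the filter on low counts, given beside the number listed.

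Early response, heat shock and chemokine genes were among those lower than in Macrophage_1. Of 19 immediate early genes, such as Fos, Atf3 and Egr1, 18 passed the filter, and 11 were lower and 0 higher, with a list median of -1.19 on the log2 scale (0 over all genes). Of 11 heat shock genes, all past the filter, 7 were lower and 0 higher (median -1.14), among them Hspb1 at -2.04 and Dnajb1 at -1.38. Of 24 genes for inflammatory cytokines and chemokines 17 passed the filter, and 7 were lower and 1, Pf4, was higher (median -1.08), with Cxcl2 at -3.03, Cxcl10 at -2.94 and Ccl3 at -1.92.

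Against Macrophage_2 the same lists had medians of 0.31, 0.06 and -0.22, with 0 immediate early and 0 heat shock genes past the rule in either direction. These transcripts also differed strongly between facilities. Immediate early genes summed to 35.6 and 53.8 UMIs per 10000 in Macrophage_3 of Bonn OM and Bonn IM, 94.4 in Aachen OM, and 369 and 396 in Hamburg OM and IM. Macrophage_1 ranged from 77.5 to 617 per 10000 in the medulla, so levels overlapped between the clusters, and the difference was seen only within libraries. Such genes can be switched on while tissue is digested, and the part of cell handling in these values was not tested.

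Some genes of scavenging, growth factors and lipid handling were higher than in Macrophage_2. Of 16 scavenger and efferocytosis genes 9 passed the filter, and 4 were higher and 0 lower (median 0.98), led by Gas6 and by Stab1 at 1.86, while Cd36 stood at -0.42. Of 15 growth factor genes 6 passed the filter, and 3 were higher (median 0.92), including Igf1 at 1.68 and Igfbp4 at 1.39, which encodes a binding protein of that factor. Gas6 belongs to both lists, and it and Stab1 were also label markers, so these counts are not independent of the name.

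Of 20 lysosome and lipid genes 18 passed the filter, and 4 were higher and 1 lower (median 0.37). Trem2, a lipid-sensing receptor, stood at 1.46, and the cholesterol exporter gene Abca1 at 1.42, while the lipase gene Lpl was lower at -1.25. As a sum, the 20 listed genes reached 531 UMIs per 10000 in Aachen OM, 444 in Bonn OM, 413 in Bonn IM, 378 in Hamburg OM and 418 in Hamburg IM. All 5 values lay above the highest medullary library of Macrophage_1 (350) and of Macrophage_2 (277). Gene by gene, however, 0 of the 18 were past the rule against Macrophage_1 in either direction (list median 0.28). Apoe and Lyz2, the genes for apolipoprotein E and lysozyme, are both on this list and weigh heavily in its sum. They were among the most abundant transcripts of the cluster, at 11975 to 24211.5 and 12191 to 19395 CPM.

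Markers that the study took from earlier work for the origin of macrophages differed in direction against Macrophage_2. Of 3 self-renewable markers Ccl12 and Trem2 passed the filter and Myo7a did not. Both were higher than in Macrophage_2, with medians of 1.98 for Ccl12 and 1.46 for Trem2. Their lowest ratios in a library were 0.03 and 0.04. Of 3 bone marrow-derived markers, Ccr2 and Sirpb1a were lower than in Macrophage_2, at -3.49 and -2.42, and Clec4a2 stood at -0.76. Against Macrophage_1 only Ccr2 passed the rule, at -2.12, while Ccl12 stood at -0.46, Trem2 at 0.69, Sirpb1a at -0.81 and Clec4a2 at 0.36. The origin of the cells was not tested.

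Osmotic and oxygen-related genes set the cluster apart less. Of 12 osmotic response genes 10 passed the filter, and 1, Slc6a12, was higher than in Macrophage_2 (2.40), and the taurine transporter gene Slc6a6 stood at 0.38 and the aldose reductase gene Akr1b3 at -0.04. Against Macrophage_1 the median of this list was -0.14, Slc6a12 stood at 0.10, and the only 2 genes past the rule were the heat shock genes Hspa1a and Hspa1b, both lower. Of 13 genes of the sodium pump and its FXYD partners 4 passed the filter, and Fxyd2 alone was past the ratio rule, against both clusters. Of 22 hypoxia and glycolysis genes 11 passed the filter and 0 were past the rule (medians -0.02 and -0.02), and of 10 MHC class II genes, all past the filter, 0 were past the rule (medians 0.16 and 0.17).

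**Figure D5:**
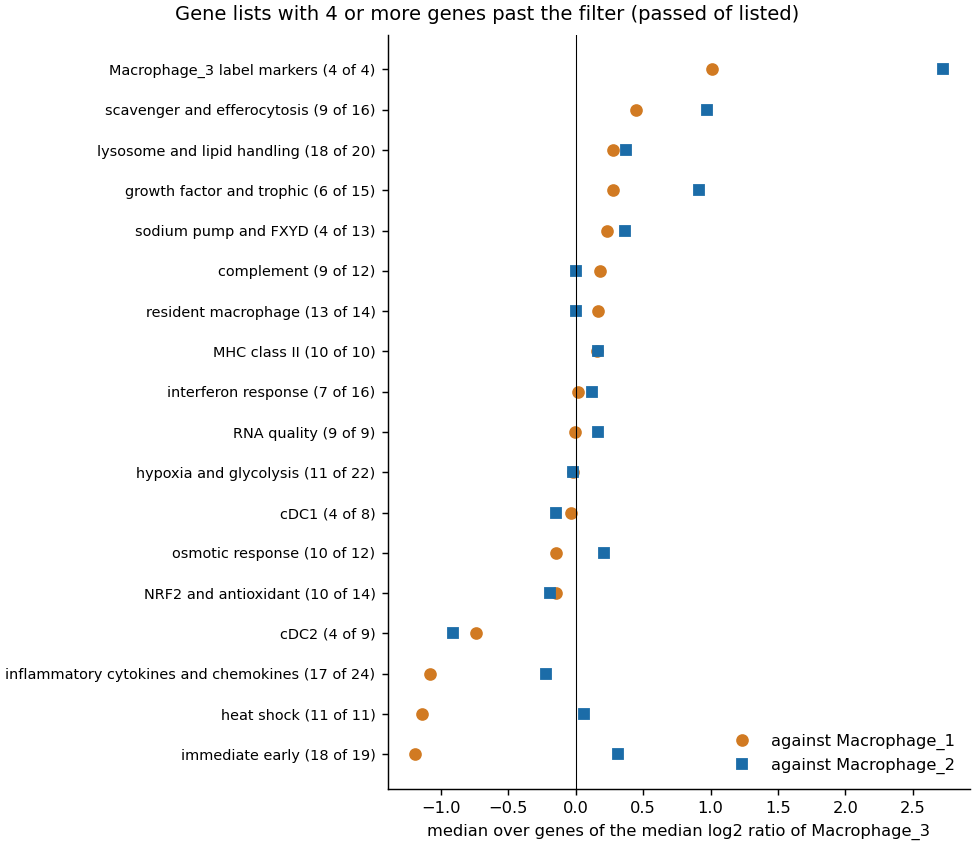
Median over the genes of a list of the median log2 ratio of Macrophage_3 to Macrophage_1 (circles) and to Macrophage_2 (squares) on the x axis, for lists with at least 4 genes past the filter on low counts (y axis; their number of those listed in parentheses). Immediate early, heat shock and cytokine lists lie between -1.19 and -1.08 against Macrophage_1, and scavenger and growth factor lists lie at 0.98 and 0.92 against Macrophage_2.

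The same genes were next compared between cortex and medulla inside each neighbour. The ratios against Macrophage_2 were not formed from counts of Macrophage_1 or of the cortex. Macrophage_1 had at least 10 cells in all 9 libraries, and 35 of 6261 genes were called between medulla and cortex (edgeR quasi-likelihood test with facility as block, Benjamini-Hochberg adjusted p under 0.05; 0.559%), 19 higher (0.303%) and 16 lower (0.256%). Of the 43 genes higher in Macrophage_3 than in Macrophage_2, 42 had a positive medulla-to-cortex change in Macrophage_1, against 50.8% of all genes tested. Called higher were 11 of the 43 genes, and of the 38 genes lower than in Macrophage_2, 35 had a negative change and 8 were called lower. The 70 genes lower than in Macrophage_1 were split, with 30 positive and 40 negative changes, 2 called higher and 4 called lower. Of the 6 genes higher than in Macrophage_1, 5 were tested, 5 had a positive change and 3 were called higher. Medullary counts of Macrophage_1 had entered the ratios that chose these last 70 and 6 genes.

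The 11 genes were Fxyd2, Slc6a12, Gas6, Pf4, Lyz2, Cst3, Trem2, Ahnak, Mgl2, Pmp22 and H1f0, and the 8 genes were Itgax, Mmp12, Rgs1, Sirpb1a, Pilra, Pilrb2, Napsa and Adgre5. Lyz2 rose in Macrophage_1 of the medulla by 1.65 on the log2 scale (SE 0.26, edgeR adjusted p = 0.000961) and by 1.23, 2.36 and 1.17 at Aachen, Bonn and Hamburg. Itgax fell by 1.55 (SE 0.25, edgeR adjusted p = 0.000961), with changes of -1.67, -1.93 and -0.98 at the 3 facilities. The clustering itself divided cells between Macrophage_1 and Macrophage_3 by such genes, and its part in these changes was not tested.

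In Macrophage_2, 4 of 4452 genes were called between medulla and cortex (0.0898%), 2 higher (0.0449%) and 2 lower (0.0449%). Over all genes tested there, 50.6% had a positive change. Of the 43 genes 33 were tested, 26 with a positive change, and Fxyd2 alone was called. Of the 38 genes 13 had a positive and 25 a negative change, 0 were called lower and 1, Cxcl9, was called higher in the medulla. Medullary counts of Macrophage_2 had entered the ratios that chose both gene sets, so these changes are not independent of that choice.

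The label markers themselves were tested outside the cluster in the same fits. Fxyd2 stood at 19.97, 427 and 23.9 CPM in the cortical Macrophage_1 libraries of Aachen, Bonn and Hamburg. In the medulla it stood at 298 and 91.1 (Aachen OM and IM), 464 and 598 (Bonn) and 241 and 160 (Hamburg). The Bonn cortex value comes from 43 UMIs in 3 of 24 cells, and it alone among the cortical libraries lies within the medullary range.

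Fxyd2 rose in the medulla by 1.92 on the log2 scale in Macrophage_1 (SE 0.34, edgeR adjusted p = 0.00364), with 2.77, 0.30 and 2.80 at Aachen, Bonn and Hamburg. Without Hamburg the adjusted p was 0.24, and without Bonn the change was 3.09. In Macrophage_2 it rose by 2.25 (SE 0.36, edgeR adjusted p = 0.00127), from 8.30 to 22.7 CPM in cortex to 14.5 to 96.6 in medulla; the adjusted p was 0.081 without Hamburg.

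Slc6a12 rose in Macrophage_1 by 4.52 on the log2 scale (SE 1.01, edgeR adjusted p = 0.0264) with 34, 3, 98, 9 and 7 UMIs in Aachen OM, Bonn OM and IM and Hamburg OM and IM, none in Aachen IM and 1 in the 3 cortical libraries. There, too, Gas6 rose by 1.68 (SE 0.39, edgeR adjusted p = 0.0343). Neither passed without Aachen (adjusted p = 0.251 and 0.231) or without Hamburg (0.195 and 0.171), and Gas6 did not pass without Bonn (0.205). The change of Stab1 was 0.87 in Macrophage_1 (adjusted p = 0.165) and 0.48 in Macrophage_2 (adjusted p = 0.785). Slc6a12 and Gas6 were too sparse to be tested in Macrophage_2.

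Within Macrophage_3 itself the cortex was represented by 38 cells of Bonn, 24 of which held at least 2 T or B cell UMIs. The edgeR fit of this cluster pools the spread over genes, and its p-values rest mainly on that pooled spread. Between medulla and cortex 15 of 6513 genes were called (0.23%), 13 higher (0.2%) and 2 lower (0.0307%). Every such value is a contrast within Bonn, with a spread estimated on 1 residual degree of freedom, and the count was 0 without facility as block and 4 with DESeq2.

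Fxyd2 rose by 3.19 on the log2 scale (SE 0.42, edgeR adjusted p = 1.1e-10), and it was also called by DESeq2 (adjusted p = 0.0058) but not after thinning to 500 UMIs (0.61). Lyz2 rose by 1.203 (SE 0.25, edgeR adjusted p = 0.00169) from 5594 CPM in Bonn cortex to 12191 and 13508 in Bonn OM and IM. Ahnak, which encodes a large scaffold protein, rose by 5.28 (SE 0.72, edgeR adjusted p = 4.1e-10), from 7.87 to 312 and 315 CPM.

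The other genes called higher included Plxdc2, the phospholipid transfer gene Pltp, the early response genes Fos (2.51) and Junb (1.98), the heat shock genes Hspa1a (1.72) and Hspa1b (1.55), Denr, Cd14, Cd72 and Ciita, the master regulator of MHC class II genes. Called lower were Lpcat2 (-1.27) and the immunoglobulin gene Igkv2-109, all of whose 40 UMIs in the cluster lay in Bonn cortex. Slc6a12 (0 cortical UMIs, adjusted p = 0.149), Gas6 (1.39, adjusted p = 0.473) and Stab1 (0.11, adjusted p = 0.975) did not pass.

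OM and IM were compared in the same fit, where only Bonn and Hamburg inform the contrast. Called were 9 of 6513 genes (0.138%), 2 higher in OM (0.0307%) and 7 lower (0.107%), and 265 had an unadjusted p under 0.05. None of the 4 label markers passed, with OM minus IM changes of -0.23 for Fxyd2, 0.12 for Slc6a12, 0.09 for Stab1 and 0.10 for Gas6 (SE 0.20, 0.38, 0.21 and 0.25, adjusted p = 1 for each).

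Lower in OM at both facilities were Gpx3, Cxcl2, Cdkn1a, mt-Atp8 and Hmox1. Cxcl2, a chemokine gene that attracts neutrophils, stood at 2.45 and 30.7 CPM in OM and IM of Bonn and at 674 and 2300 in those of Hamburg, a change of -1.90 (SE 0.25, edgeR adjusted p = 5.4e-11). Its Bonn values rest on 1 and 40 UMIs. Cdkn1a, which encodes the cell cycle inhibitor p21, stood at 24.5 and 92.1 CPM at Bonn and at 155 and 425 at Hamburg, a change of -1.64 (SE 0.27, edgeR adjusted p = 1.7e-06).

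Gpx3, a secreted glutathione peroxidase made mainly by the proximal tubule, changed by -2.78 (SE 0.53, edgeR adjusted p = 0.000196) on 5 and 52 UMIs at Bonn and 1 and 13 at Hamburg. The kidney androgen-regulated gene Kap was lower too (-2.67), at 24.5 and 153 CPM in OM and IM of Bonn and at 0 in both of Hamburg. Both belong to the list of proximal tubule genes, which summed to 0.736 UMIs per 10000 in OM and 2.87 in IM of Bonn and to 0.464 and 1.27 at Hamburg. The part of tubule RNA in these changes was not tested.

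Hmox1, which encodes heme oxygenase 1, changed by -0.94 (edgeR adjusted p = 0.0205) and mt-Atp8 by -1.17 (edgeR adjusted p = 0.000539), but each nearly at 1 facility only, with -0.03 at Bonn for Hmox1 and -0.02 at Hamburg for mt-Atp8. The calls outside this rule were Ccl7, with 46 of its UMIs in Hamburg IM, and the immunoglobulin genes Igkv9-120 and Igkv3-2, with 61 and 30 UMIs, all in Bonn OM. Without doublets and cells holding T or B cell UMIs, 0 genes were called between OM and IM, and DESeq2 called 1, Cxcl2.

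Whether the OM minus IM change of Macrophage_3 differed from that of its neighbours was tested as an interaction. Against Macrophage_2, 3 of 5496 genes were called (0.0546%), 2 higher (0.0364%) and 1 lower (0.0182%). Against Macrophage_1, 2 of 7362 were called (0.0272%), 1 higher (0.0136%) and 1 lower (0.0136%). None of the 4 label markers passed against either cluster (edgeR adjusted p = 1 for each), with interaction values for Fxyd2 of -0.12 (SE 0.41) against Macrophage_2 and 0.24 (SE 0.26) against Macrophage_1.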

How the data were processed

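Per the labels, CD45-sorted cells of dissected mouse kidney compartments were profiled on the 10x Genomics platform. The authors mapped reads to mm10 with Cell Ranger, removed cells outside the range of 200 to 4000 genes or above 20% mitochondrial reads, and integrated and clustered them with Seurat (4.0 in their methods; the submitters' processing notes name the same tools). The deposited table holds expected counts of UMIs per cell, not scaled to depth, whose values above 0 are exactly whole at Aachen and Bonn and in 0.118% of cases at Hamburg. Clusters and facilities were read from that table.

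Counts were summed per library and cluster, rounded, filtered with filterByExpr, scaled by TMM and tested with glmQLFit and glmQLFTest of edgeR 4.0.16 (limma 3.58.1, R 4.3.3), with facility as block, libraries of at least 10 cells and a Benjamini-Hochberg threshold of 0.05. Over 3845 genes, deviations of libraries of 1 facility correlated at 0.612 to 0.857 and those of different facilities at -0.709 to 0.269, so facility was kept as block. Ratios used log2 CPM with a prior count of 2. The difference between clusters in the OM to IM change was tested as an interaction with library as block. Shares were compared by exact permutation within facilities (Python 3.11.15, scipy 1.17.1), and doublets were called per library with Scrublet in scanpy 1.11.5. Napsa and Atp1b1, which macrophages also express, were left out of the tubule genes set beside Fxyd2. Intervals cover counting error only. Alternatives were DESeq2 1.42.0, no TMM, no filter, no block, cells thinned to 500 UMIs, removal of doublets and of cells with 2 or more T or B cell UMIs, another prior count and leaving out each facility. The edgeR contrasts between compartments within a cluster were tried on simulated counts that held no facility effect. The interaction fits were not tried in this way.

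Cluster, markers and gene lists were chosen with earlier results of these data known. Named genes were the label markers, the genes higher or lower than in both neighbours with at least 20 CPM, the 10 called genes each way with the largest change that had 1 direction at every facility (with under 5 calls, those with the smallest p), and list members with extreme median ratios; others were chosen after their values were seen. Positions are from GENCODE vM21 and the promoter from RefSeq; the latter holds 3 of the 4 marker genes. In the edgeR fits, p-values measure the spread between facilities, which includes technical differences. The fits also pool this spread over genes, so a p-value does not measure the spread of 1 gene alone. For Macrophage_3 this spread comes only from OM and IM of Bonn and Hamburg. With 1 residual degree of freedom per gene, its p-values rest mainly on the pooled spread. Its medulla-to-cortex change was measured at Bonn alone, so those p-values hold no spread of that change between facilities.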

Additional observations from a re-analysis of the deposited data

Results flagged for a closer look

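The OM minus IM change differed between Macrophage_3 and a neighbour for 5 genes, by the test of the interaction itself (edgeR quasi-likelihood, library as block, Benjamini-Hochberg adjusted).

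Against Macrophage_2, 3 of 5496 genes were called (0.0546%). The B cell receptor gene Cd79a had an interaction of 5.54 in log2 units (SE 0.57, with an adjusted p of 1.1e-06). It stood at 54.0 and 29.2 CPM in OM and IM of Bonn in Macrophage_3 and at 3.93 and 375 in Macrophage_2, where 129 UMIs lay in Bonn IM. Of the 67 Macrophage_2 cells of Bonn IM, 10 were called doublets and 39 held at least 2 T or B cell UMIs. The interaction was not fitted without such cells, and their part in this value was not tested. The immunoglobulin gene Igkv3-2 differed by 13.44 (SE 2.19, adjusted p = 0.00586), a fitted value that depends on the prior count, since its 30 UMIs in Macrophage_3 all lay in Bonn OM and its 17 in Macrophage_2 all in Bonn IM. Cxcl2 differed by -2.17 (SE 0.37, adjusted p = 0.00630), with 674 and 2300 CPM in OM and IM of Hamburg in Macrophage_3 and 887 and 518 in Macrophage_2. Without Hamburg the value for Cxcl2 was 0.079 (adjusted p = 1).

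Against Macrophage_1, 2 of 7362 genes were called (0.0272%). Igkv9-120 differed by 13.40 (SE 1.65, adjusted p = 9.8e-06), again a fitted value on 61 UMIs in Bonn OM of Macrophage_3 and 47 in Bonn IM of Macrophage_1. In these groups 39 of 72 and 185 of 285 cells held at least 2 T or B cell UMIs. The chemokine gene Ccl7 differed by -2.98 (SE 0.50, adjusted p = 0.00209), at 12.4 and 326 CPM in OM and IM of Hamburg in Macrophage_3 and 268 and 233 in Macrophage_1. DESeq2 called 0 genes in this comparison, with 29 at an unadjusted p under 0.05.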

How the results depend on the processing

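The share of Macrophage_3 stayed higher in medulla than in cortex under every alternative, but its p passed only in the main setting and with cells of at least 500 UMIs: 9.14 points over all immune cells (exact permutation p = 0.185), 26.0 without doublets (p = 0.074), and 21.1 to 29.5 when 1 facility was left out (exact p = 0.111 to 0.333, where 0.111 is the smallest possible). Calls between OM and IM in Macrophage_3 numbered 9, against 1 with DESeq2, 5 with libraries of at least 5 cells, 2 in 1 fit of the 3 clusters, and 0 without the replicate block, after thinning, and without doublets and cells with T or B cell UMIs (17, 23 and 132 at an unadjusted p under 0.05). Calls between medulla and cortex numbered 15, against 4 with DESeq2, 0 without the block (202 unadjusted), 1 after thinning, 2 with libraries of at least 5 cells and 4 in 1 fit of the 3 clusters. The fits with libraries of at least 5 cells and with 3 clusters were chosen after the data were seen. Leaving out Aachen gave 12 and 16 calls; without Bonn or Hamburg these fits were not possible. Calls for the OM minus IM difference numbered 3 against Macrophage_2, with 1 by DESeq2 and 3 to 18 leaving out 1 facility, and 2 against Macrophage_1, with 0 by DESeq2, 1 to 3 leaving out 1 facility, and 3 and 1 with facility as the replicate block. Medulla against cortex gave 35 calls in Macrophage_1 (6 with DESeq2, 0 without the block, 10 to 24 leaving out 1 facility) and 4 in Macrophage_2 (0 with DESeq2, 0 without the block, 2 to 17). In these fits the label markers were called 4 times, but 0 times with DESeq2 or without the block and 0 to 3 times leaving out 1 facility. Genes higher than in both neighbours numbered 3 (8 without doublets and cells with T or B cell UMIs, 2 to 11 leaving out 1 facility) and genes lower 10 (6 without those cells, 2 after thinning, 9 to 22). Directions turned for Fxyd2 between OM and IM (0.26 without the block, 0.49 with at least 5 cells, 0.33 in 1 fit of the 3 clusters), for Stab1 after thinning (-0.55 between OM and IM, -0.40 between medulla and cortex) and without the replicate block (-0.092 between medulla and cortex), for Gm42726 in Macrophage_2 with DESeq2 (0.59) and for Cxcl2 in the OM minus IM difference against Macrophage_2, which ranged from -2.43 to 0.079 leaving out 1 facility (0.079 without Hamburg). The causes were not tested. Low counts limit Slc6a12, and the cortical values rest on 38 cells of 1 library.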
